A study of Homo sapiens with 4 samples.

Results

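The data cover the genes of the NF-κB transcription factor subunits, RELA, RELB, REL, NFKB1 and NFKB2, and their nuclear cofactor BCL3. These 6 genes, out of 9681 features on the array, were taken by name: every probe annotated with the symbol of a member was used. All 6 had a value on all 4 arrays. NF-κB is a family of dimers. RELA (p65), REL (c-Rel) and RELB carry the domains that activate transcription, while NFKB1 and NFKB2 encode the precursors p105 and p100, which are processed to the DNA-binding partners p50 and p52. In the canonical pathway IκBα holds dimers such as RELA with p50 in the cytoplasm until it is degraded, and in the non-canonical pathway p100 is processed to p52, which pairs with RELB. The genes NFKB2, RELB, REL, NFKB1 and BCL3 are themselves known NF-κB targets in other cells, and constitutive NF-κB activity is common in myeloma.

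EJM, an established human myeloma cell line labelled as derived from bone marrow, carried an IκBα super-repressor, a form of the inhibitor that resists degradation, under a tetracycline repressor. Doxycycline was given at 20 µg/ml and 37 °C for 1, 2, 3 or 4 days, and the induced cells of each day were set against uninduced cells of that line on a 2-colour array, with the induced cells in Cy5 and the uninduced cells in Cy3. There was 1 array per day, so a value for a day has no replicate check, and 4 arrays limit the precision of every mean. The labels do not say whether the line is a clone, or whether the uninduced RNA was the same preparation on every array. No dye swap and no line without the transgene given doxycycline was analysed here, so effects of dye and of the drug cannot be told apart from those of the super-repressor.

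Each value is a log2 ratio of induced over uninduced cells, below 0 where the induced cells had less signal. The direction was read from the dyes in the labels and base 2 was assumed, since neither is stated with the values: the opposite direction would turn every sign, and a natural log would enlarge every fold. The day 1 and day 2 arrays had more missing values (25.3% and 32.3% of probes, against 11.2% and 9.01% on days 3 and 4) and a wider spread. The arrays of days 1 and 2 correlated at 0.316 over probes and those of days 3 and 4 at 0.566, while the pairs of an earlier with a later day lay between 0.02 and 0.187. Ratios give no level, so marker genes could not be used to check the cell type. The markers of plasma cells had a median ratio of 0.40 (9 of 11 above 0), against -0.03 over all features, of which 56.0% were below 0. By day the plasma cell median was 0.56, 0.70, 0.24 and 0.16. The markers of B cells, T cells, myeloid cells, and stromal and red cells had medians between -0.07 and 0.07, with 1 gene called, β-globin (HBB), at 0.85. Below 0 were 9 of 11 B cell, 6 of 11 T cell, 2 of 6 myeloid, and 2 of 6 stromal and red cell markers. Their part in the results below was not tested. NFKBIA, the gene that the transgene derives from, averaged -0.14 ± 0.07 (SD, 4 arrays) with probes on both sides of 0. That small SD came from averaging probes that disagreed. Probe 15866_1 was below 0 on all 4 arrays, with a mean of -0.91, and probe 34886_1 averaged 0.28. Probes 24499_1 and 28424_1 averaged -0.003 and 0.037.

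**Figure D1:**
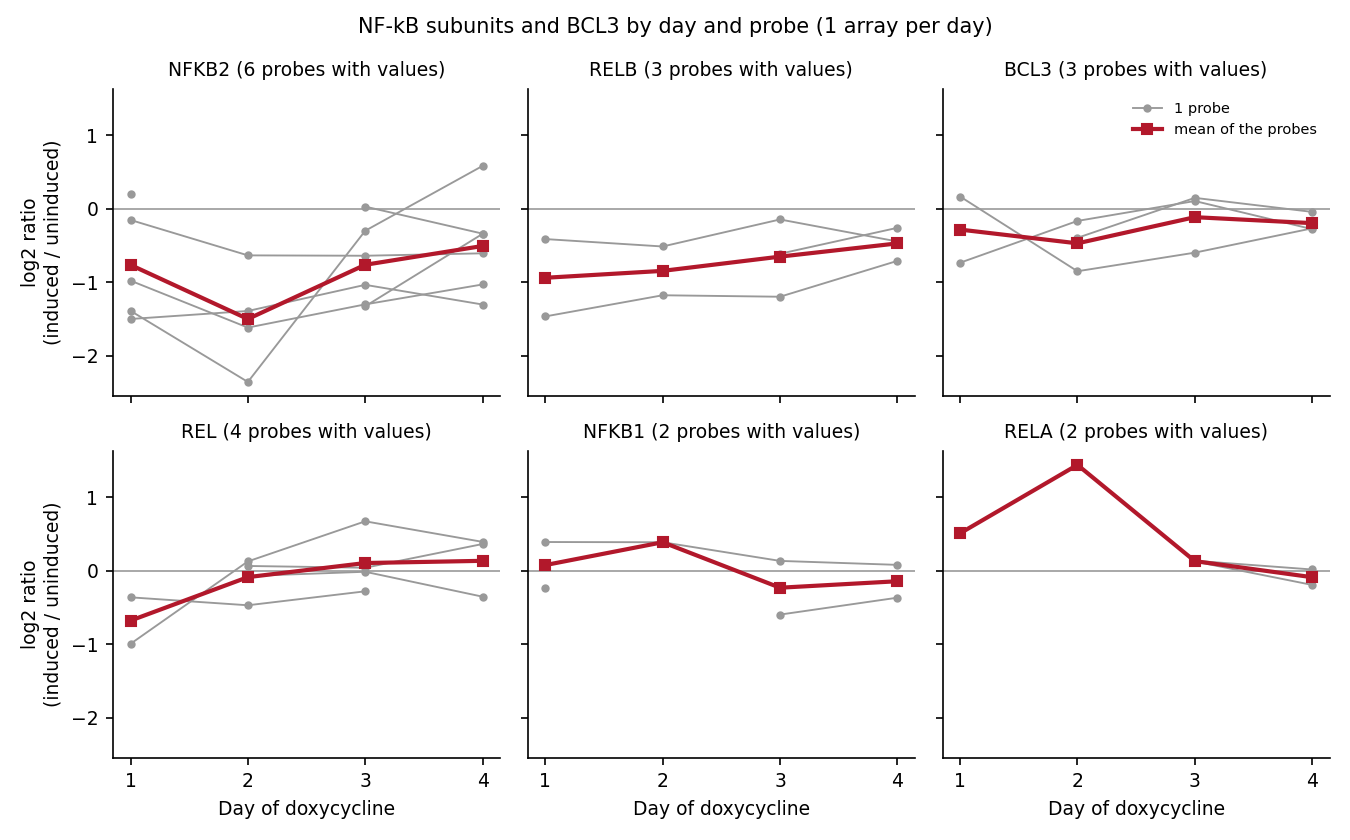
Log2 ratio of induced over uninduced EJM cells (vertical axis) by day of doxycycline (horizontal axis, days) for each gene. Grey lines are single probes, with gaps where a probe had no value, and red squares are the mean of the probes on that day. NFKB2 and RELB stayed below 0 on all 4 days, RELA was above 0 on days 1 to 3 with a peak of 1.44 on day 2 that came from a single probe, and the probes of NFKB1 lay on opposite sides of 0.

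The question put to these genes was whether the transcripts of NF-κB itself differed once its inhibitor was induced. NFKB2 and RELB, the pair of the non-canonical pathway, had the lowest ratios of the 6 genes, at 1.85-fold and 1.66-fold lower on average in induced cells. RNA came from whole cultures, so fewer cells with a transcript and less of it per cell cannot be told apart. BCL3 lay closer to 0 on the same side. REL and NFKB1 averaged near 0, and RELA averaged above 0 through its day 1 and day 2 values. No member passed the test on the gene mean over all features (0 of 6, limma with Benjamini-Hochberg adjustment at 0.05), where 0.337% of all features passed. At an unadjusted p under 0.05, 2 of the 6 were lower, NFKB2 and RELB, against 6.0% of all features. NFKB2, RELB and BCL3 were below 0 on all 4 arrays, 3 of 6 members, against 13.4% of the features with 4 values.

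NFKB2, the gene of p100 and p52, had log2 ratios of -0.76, -1.50, -0.76 and -0.51 on days 1 to 4. All 4 days lay below 0, with day 2 the lowest and day 4 the nearest to 0. The mean was -0.88 ± 0.43 (SD, 4 arrays; 95% interval -1.30 to -0.47; limma adjusted p = 0.125, unadjusted p = 0.00143). Among the 7713 features tested, this mean stood at percentile 0.32 from the lowest, and the single days stood between percentile 0.77 (days 2 and 3) and 5.32 (day 1).

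The 7 NFKB2 probes differed widely. Probe 17160_1 read -1.50, -1.39, -1.04 and -1.30 on days 1 to 4, with a mean of -1.31 ± 0.20. Probe 27660_1 read -0.98, -1.62, -1.30 and -1.03, with a mean of -1.23 ± 0.29. Both probes stayed below 0 on every day. Probe 34508_1 was also below 0 throughout, at -0.15, -0.64, -0.64 and -0.61, and averaged -0.51. Probe 35251_1 ran from -2.36 on day 2 to 0.58 on day 4, crossing 0, with an SD of 1.28 over the 4 arrays. Probe 35052_1 had 3 values, 0.20 on day 1, -1.33 on day 3 and -0.34 on day 4. Probe 25194_1 had values of 0.03 on day 3 and -0.34 on day 4, and probe 35002_1 had none. The day 2 low of the gene mean therefore drew on probe 35251_1 and on 4 probes, against 5 on day 1 and 6 on days 3 and 4.

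RELB, the transactivating partner of p52, read -0.94, -0.85, -0.65 and -0.47 on days 1 to 4. Every day lay below 0 and the ratio moved towards 0 from each day to the next. The mean was -0.73 ± 0.21 (SD, 4 arrays; 95% interval -1.02 to -0.43; limma adjusted p = 0.094, unadjusted p = 0.000646), at percentile 0.73 of all features. Single days stood between percentile 1.2 (day 3) and 5.3 (day 2). Probe 26921_1 read -1.47, -1.18, -1.20 and -0.71, and probe 28926_1 read -0.41, -0.51, -0.15 and -0.45. The probes had the same sign and their values did not overlap. Probe 26921_1 was nearest to 0 on day 4 and probe 28926_1 on day 3, and neither moved towards 0 from each day to the next as the gene mean did. Probe 16279_1 had values on days 3 and 4 only, -0.61 and -0.26, and entered the gene mean on those days.

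With each probe fitted as a feature of its own, a choice made after the probe values were seen, 3 of the 17 member probes with at least 3 values passed, all lower, against 0.231% of 11669 probes. They were probes 17160_1 and 27660_1 of NFKB2 (limma adjusted p = 0.0263 and 0.0296) and probe 26921_1 of RELB (limma adjusted p = 0.0366). Of the 9 NFKB2 and RELB probes with a value, all 9 had a mean below 0, where 56.0% of all features tested did. That share is over features with at least 3 values, with the probes of a gene averaged, whereas the 9 are single probes. Among them, probes 16279_1 of RELB and 25194_1 of NFKB2 had values on 2 arrays only. These genes were singled out for the lowest means of the members, so the sign of their probes was in part fixed by that choice. Probes of a gene share the RNA of an array and are not replicates of the condition.

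**Figure D2:**
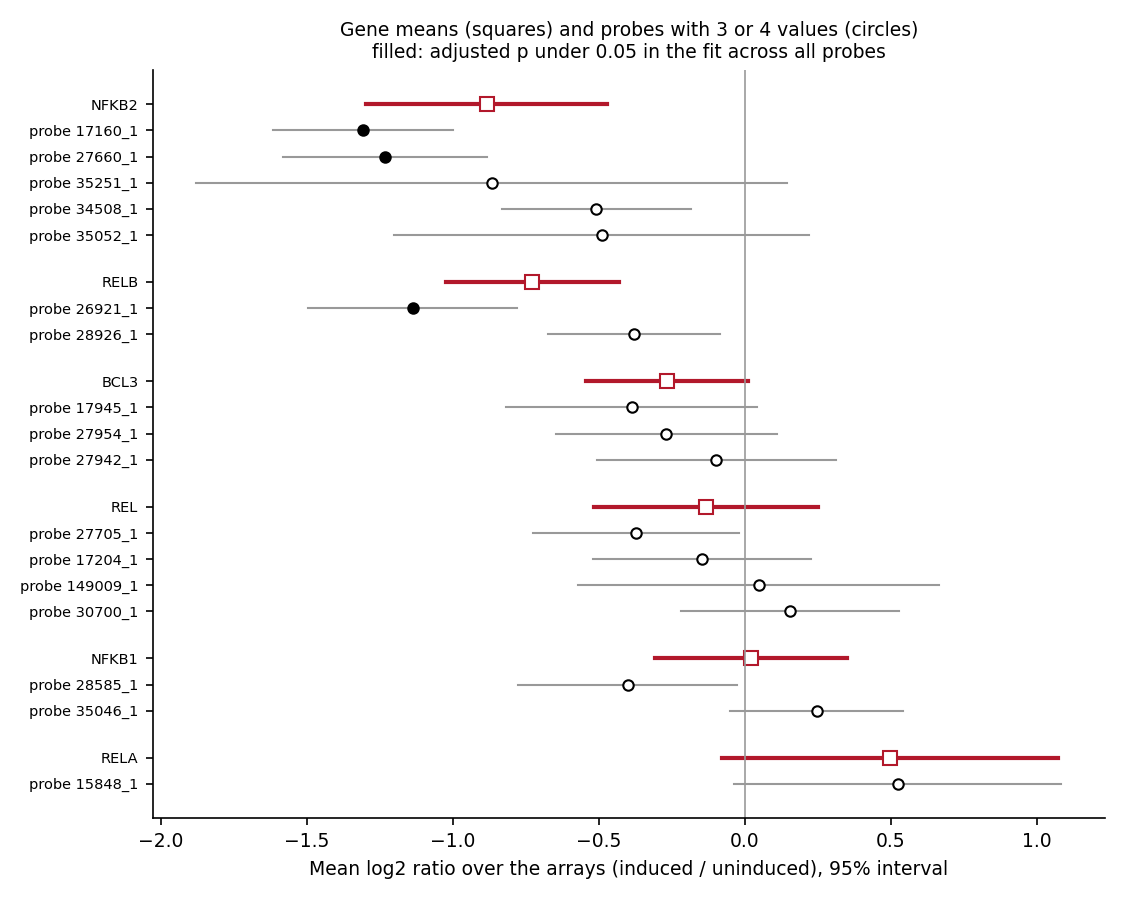
Mean log2 ratio over the arrays (horizontal axis, induced over uninduced) with 95% intervals from limma, for each gene (red squares) and each of its probes with at least 3 values (circles, filled where the adjusted p over all probes was under 0.05). The 3 filled circles belong to NFKB2 and RELB, and the means of the NFKB1 probes stand at -0.40 and 0.25.

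The means of NFKB2 and RELB depended on how the arrays and probes were combined, always with the same sign. In the fit with array weights, arrays further from the mean over the 4 arrays counted less, so a difference between days also lowers a weight. Both genes were then called, RELB at -0.63 (limma adjusted p = 0.0183) and NFKB2 at -0.74 (0.0221), where 1.88% of features were called lower. With the arrays of days 3 and 4 alone both were called, RELB at -0.56 (0.032) and NFKB2 at -0.64 (0.025), where 3.12% of features were called lower. With each gene read from its most complete probe, the first by ID in a tie, NFKB2 rested on probe 17160_1 and RELB on probe 26921_1, both were called, and 0.169% of features were called lower. NFKB2 had 4 probes with all 4 values and RELB had 2, so the order of the IDs decided. Of the other complete probes, 27660_1 of NFKB2 passed when fitted singly. Probes 34508_1 and 35251_1 of NFKB2 and 28926_1 of RELB did not (limma adjusted p = 0.1985, 0.4246 and 0.2663). Without any 1 of the arrays neither was called: the mean of NFKB2 then lay between -1.01 and -0.68 and that of RELB between -0.81 and -0.66. Over all 15 alternatives the limma adjusted p ran from 0.0221 to 0.452 for NFKB2 and from 0.0183 to 0.43 for RELB.

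**Figure D3:**
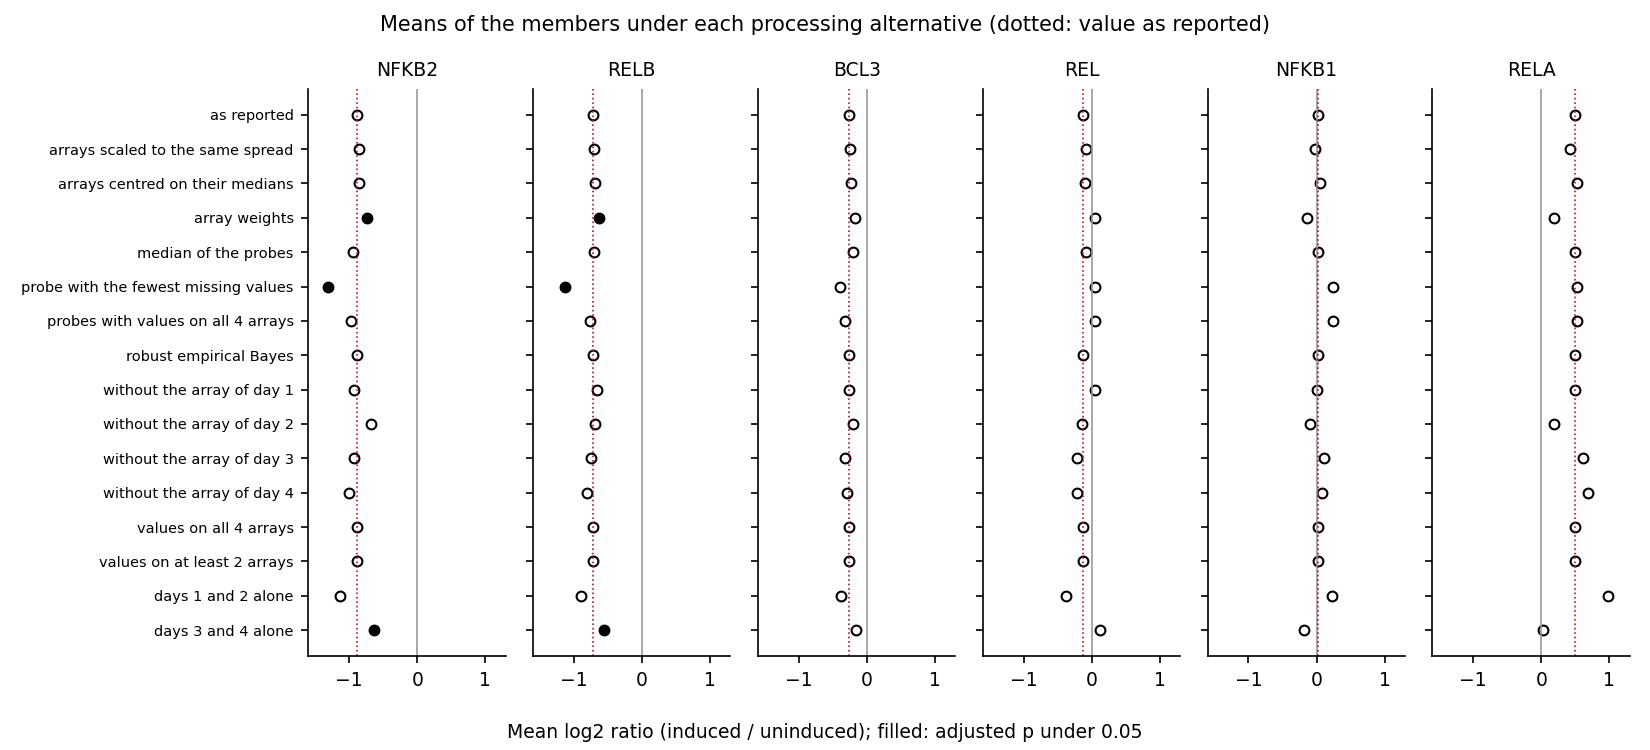
Mean log2 ratio of each gene (horizontal axis, induced over uninduced) as reported and under 15 processing alternatives (rows). Filled points had an adjusted p under 0.05 and dotted lines mark the values as reported. The points of NFKB2, RELB and BCL3 stay below 0, those of RELA above 0, and those of REL and NFKB1 fall on both sides.

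Binding motifs of NF-κB were looked for at the starts of the members, since several members are known targets of NF-κB. RefSeq promoter windows (GRCh38.p14, 250 bases before to 50 after a transcript start) were matched by symbol for 5 of the 6 members, all but RELB, with 9 windows in all. The κB consensus was searched on both strands. It reads, from 5′ to 3′, G, G, G, a purine, any base, any base, a pyrimidine, a pyrimidine, C, C. At least 1 match was found in 5 of the 9 windows of the members and in 11.3% of the 35116 windows of all genes. NFKB2 has 3 windows, and those of the second start and of the third held matches. They are shown, in lower case with the matches in capitals, because NFKB2 had the lowest mean, beside the window of NFKB1 that held a match, because NFKB1 did not share that mean. All run 5′ to 3′ on the + strand.
NFKB2, window 2, chr10:102394328-102394627: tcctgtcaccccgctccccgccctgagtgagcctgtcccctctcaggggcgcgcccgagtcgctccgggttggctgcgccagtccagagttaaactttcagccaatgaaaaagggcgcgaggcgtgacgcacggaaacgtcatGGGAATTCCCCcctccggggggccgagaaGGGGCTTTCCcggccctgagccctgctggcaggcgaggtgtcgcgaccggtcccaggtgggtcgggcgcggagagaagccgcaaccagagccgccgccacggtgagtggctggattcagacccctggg
NFKB2, window 3, chr10:102395455-102395754: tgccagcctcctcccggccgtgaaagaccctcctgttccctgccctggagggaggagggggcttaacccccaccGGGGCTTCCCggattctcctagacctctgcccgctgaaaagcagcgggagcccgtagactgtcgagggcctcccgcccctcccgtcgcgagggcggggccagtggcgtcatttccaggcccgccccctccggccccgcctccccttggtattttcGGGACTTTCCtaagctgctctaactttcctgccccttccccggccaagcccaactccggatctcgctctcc
NFKB1, window 1, chr4:102501109-102501408: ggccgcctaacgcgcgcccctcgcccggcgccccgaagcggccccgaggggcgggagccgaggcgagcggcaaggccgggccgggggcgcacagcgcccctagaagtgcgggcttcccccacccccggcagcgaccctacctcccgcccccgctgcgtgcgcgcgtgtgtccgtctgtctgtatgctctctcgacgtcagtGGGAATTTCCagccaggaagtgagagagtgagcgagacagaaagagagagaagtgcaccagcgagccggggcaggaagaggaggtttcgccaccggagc

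In window 2 of NFKB2, matches began at positions -107 and -78 from the start. The match at -107 also read as one on the opposite strand, where another at -106 overlapped it. In window 3 of NFKB2 they began at -176 and -21. The NFKB1 match, GGGAATTTCC, began at -49. REL had a match, GGGAAATTCC, at -47 with an overlapping match on the opposite strand, and BCL3 had GGGAAGTCCC, a match on both strands, at 3 bases into the transcript. Neither RELA window held a match. Genes with a match in their window thus had means from -0.88 (NFKB2) to 0.02 (NFKB1), and a match in these letters is a description only.

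BCL3, an IκB-like protein that acts in the nucleus with p50 or p52 dimers, read -0.28, -0.47, -0.12 and -0.20 on days 1 to 4. All days were below 0 and none was as low as the highest day of NFKB2. The mean was -0.27 ± 0.15 (SD, 4 arrays; 95% interval -0.54 to 0.01; limma adjusted p = 0.415), at percentile 13.04 of all features. Its probes differed in pattern: on day 1 probe 17945_1 read 0.17 and probe 27954_1 read -0.73, while on day 3 they read -0.60 and 0.10. Probe 27942_1 had no day 1 value and read -0.40, 0.15 and -0.04 on days 2 to 4. The probes thus differed in sign on days 1 and 3 and were all below 0 on days 2 and 4, and the mean of each of the 3 probes was below 0.

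REL, the subunit c-Rel of lymphoid cells, read -0.68, -0.09, 0.10 and 0.13 on days 1 to 4. Day 1 was the lowest and the later days lay near 0. The mean was -0.13 ± 0.38 (SD, 4 arrays; 95% interval -0.52 to 0.25; limma adjusted p = 0.754). Of its 4 probes only 149009_1 and 27705_1 had day 1 values, -0.996 and -0.36, so the low day 1 value rests on those 2 probes. Probe 27705_1 stayed below 0 on its 3 arrays, at -0.36, -0.47 and -0.28, whereas probe 149009_1 reached 0.67 on day 3. Probe 17204_1 read -0.07, -0.02 and -0.35 on days 2 to 4, and probe 30700_1 read 0.06, 0.04 and 0.36.

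NFKB1, the gene of p105 and p50, read 0.08, 0.39, -0.23 and -0.14 on days 1 to 4. The mean was 0.02 ± 0.28 (SD, 4 arrays; 95% interval -0.31 to 0.35; limma adjusted p = 0.962). Its probes had opposite signs on every shared day. Probe 35046_1 was above 0 throughout, at 0.39, 0.39, 0.13 and 0.08, and probe 28585_1 was below 0 on days 1, 3 and 4, at -0.24, -0.60 and -0.37. Probe 25193_1 had no value. The day 2 value of the gene came from probe 35046_1 alone, so the gene mean near 0 averages probes that disagreed.

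RELA, the main transactivating subunit of canonical NF-κB, read 0.51, 1.44, 0.13 and -0.09 on days 1 to 4. Day 2 was the highest value of any member on any day and stood at percentile 98.96 of the features on that array. The mean was 0.50 ± 0.68 (SD, 4 arrays; 95% interval -0.08 to 1.07; limma adjusted p = 0.451). On days 1 and 2 the gene rested on probe 15848_1, and on days 3 and 4 this probe read 0.14 and 0.02 beside 0.13 and -0.19 for probe 28407_1. Without the day 2 array the mean was 0.18, and with days 3 and 4 alone it was 0.02.

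The order of the means, from NFKB2 through RELB, BCL3, REL and NFKB1 to RELA, was compared within arrays, where any offset of an array cancels. All 15 pairs were compared with an exact sign-flip test, which with 4 arrays cannot give a two-sided p below 0.125. In 10 pairs the difference had the same sign on all 4 arrays, which is that smallest p, or 0.1875 adjusted over the 15 pairs. The order was taken from the means of these same arrays and the pairs share genes, so these signs in part restate it. NFKB2 minus BCL3 was -0.48, -1.03, -0.65 and -0.31 on days 1 to 4, and RELB minus BCL3 was -0.66, -0.38, -0.54 and -0.28. Each was below 0 on every array, with means of -0.62 ± 0.31 and -0.46 ± 0.17 (SD, 4 arrays). RELB minus REL averaged -0.60 ± 0.23 and RELB minus NFKB1 -0.75 ± 0.44, again below 0 on every array. NFKB1 minus NFKB2 averaged 0.91 ± 0.68 and RELA minus RELB 1.23 ± 0.83, both above 0 on every array and larger on days 1 and 2. RELA minus REL, at 0.63 ± 0.86, and RELB minus NFKB2, at 0.16 ± 0.35, changed sign between arrays (exact p = 0.375 and 0.625). REL, NFKB1 and BCL3 likewise did not keep an order among themselves. A pair with the same sign throughout does not pass a threshold of 0.05 in this design.

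Over the days of induction no member passed on the slope of the ratio on day (0 of 6 with limma, where 0% of 6427 features passed). The slope of REL was 0.26 log2 per day (95% interval 0.02 to 0.50; unadjusted p = 0.0365, limma adjusted p = 0.319), the only member with an unadjusted p under 0.05, against 9.26% of features with such a p and a positive slope. Without the day 1 array the slope of REL was 0.11 (limma adjusted p = 0.754). The REL probes averaged differed by day: 17204_1 and 30700_1 had no day 1 value and 27705_1 had no day 4 value. From probe 149009_1 alone, which had all 4 values, the slope was 0.471 (limma adjusted p = 0.302). RELB had a slope of 0.16 (-0.04 to 0.36) and NFKB2 of 0.15 (-0.22 to 0.52). The slope of NFKB2 was 0.497 without the day 1 array and 0.001 without the day 4 array, and after scaling every array to 1 common spread the slopes were 0.05 for RELB and 0.036 for NFKB2. BCL3 had a slope of 0.06 (-0.16 to 0.29), NFKB1 of -0.13 (-0.40 to 0.14) and RELA of -0.31 (-0.80 to 0.18). The smallest adjusted p of the 6 was that of REL, and these intervals do not show that the ratios were constant.

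The genes whose 4 values lay nearest to those of NFKB2 and RELB were named by the root mean square difference over the 4 arrays among 3769 named genes with 4 values. Nearest to NFKB2 were ADAM8, at a difference of 0.25, HLA-DPA1 at 0.33, RELB at 0.34, TNIP2 at 0.38 and TK2 at 0.38, where the median over all genes was 0.95. ADAM8, a membrane metalloprotease, read -0.63, -1.10, -0.50 and -0.42 on days 1 to 4. HLA-DPA1, an MHC class II chain, read -0.64, -1.10, -0.34 and -0.23, and TNIP2, a partner of A20 in restraining NF-κB signalling, read -0.44, -0.96, -0.47 and -0.22. All of these shared with NFKB2 a lowest value on day 2, apart from RELB, whose lowest was day 1. The genes were picked by nearness to the values of NFKB2, so a shared day 2 low was favoured by the choice. None reached as low as -1.50.

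Nearest to RELB were HLA-DQB1 at 0.17, ZNF443 at 0.18, SNX10 at 0.19, BMP7 at 0.19 and TDG at 0.22, against a median of 0.75 over all genes. NFKB2 ranked 37 in nearness to RELB, whereas RELB ranked 3 in nearness to NFKB2. HLA-DQB1, another MHC class II chain, read -0.69, -0.63, -0.55 and -0.43 on days 1 to 4, moving towards 0 from day to day as RELB did. Picking genes by nearness to RELB favours such a likeness. ZNF443 and SNX10 rest on a single probe each. Of the 9 nearest genes other than RELB, 0 were called (limma adjusted p from 0.112 to 0.248).

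**Figure D4:**
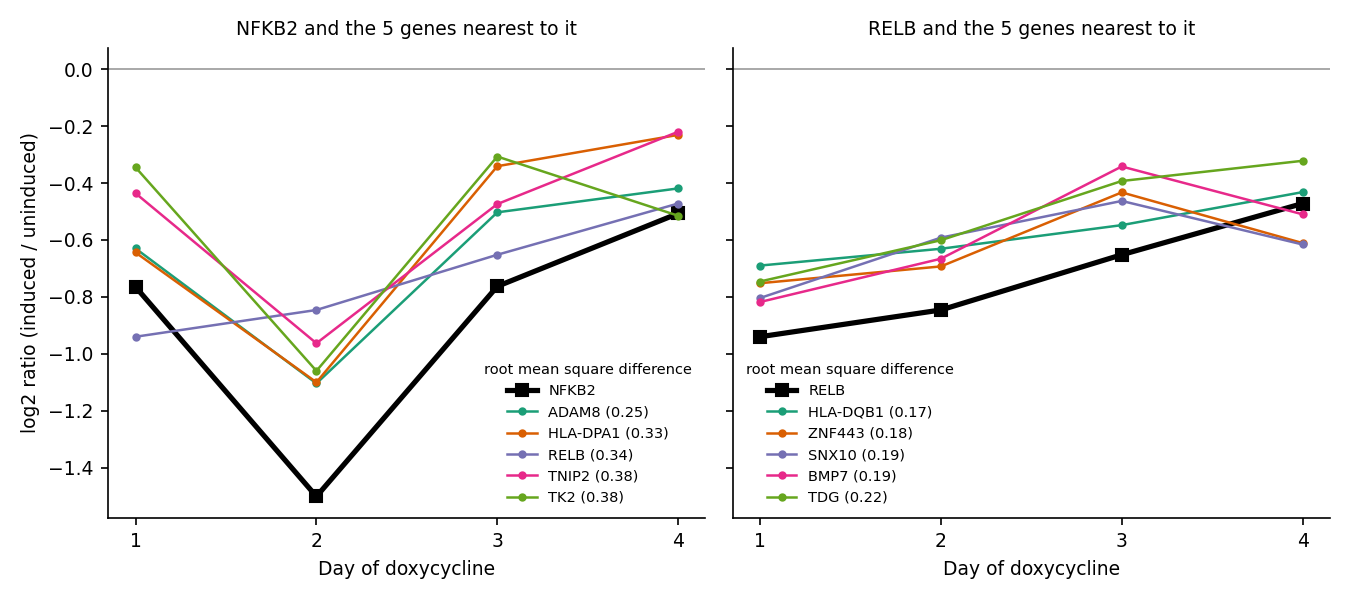
Log2 ratio of induced over uninduced cells (vertical axis) by day (horizontal axis) for NFKB2 (left) and RELB (right), in black, with the 5 named genes nearest to each in colour. The number beside a name is its root mean square difference from the black line in log2 units. NFKB2 lies below its neighbours on day 2, at -1.50, and RELB moves towards 0 from day 1 to day 4.

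Among components of the NF-κB pathway other than the members, TNFAIP3 was called and no other component passed. Of 35 tested components 24 had a mean below 0 (68.6%, against 56.0% of all features), with a median of -0.09 against -0.03. This list too was chosen with earlier results of these data known, so the share is a description only. TNFAIP3 (A20, a deubiquitinase that restrains the pathway) was lower, at -1.07, -1.52, -1.58 and -1.70 on days 1 to 4 and a mean of -1.47 ± 0.28 (SD, 4 arrays; limma adjusted p = 0.0178). The next lowest means were those of the receptor TNFRSF1B (-0.54 ± 0.11) and of TNIP2 (-0.52 ± 0.31), and the highest those of the receptor TNFRSF17 (0.50 ± 0.30), and of the adaptors TRAF5 (0.47 ± 1.01) and TRAF6 (0.33 ± 0.40). TRAF5 took its mean from a day 2 value of 1.98, with the other days between -0.19 and 0.15.

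Of 51 tested NF-κB target genes, a list that leaves out the members and shares TNFAIP3 and others with the components, 36 had a mean below 0 (70.6%, against 56.0% of all features), and the median was -0.14. The list was chosen with earlier results of these data known, so its shares and calls are a description only. TNFAIP3, UBD (a ubiquitin-like modifier, -1.11 ± 0.14) and IL2RG (the common cytokine receptor chain, -1.05 ± 0.18) were called lower, and no target was called higher. Over all 7713 features 14 were called lower and 12 higher. The highest means were those of TNFAIP2 (0.69 ± 0.12, 3 arrays), the chemokine CCL3 (0.69 ± 0.10) and B2M (0.42 ± 0.11). The median of the targets was -0.21, -0.24, -0.08 and -0.09 on days 1 to 4.

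Of 5 tested coregulators, which act with NF-κB on chromatin, 1 had a mean below 0, and 0 were called. The histone deacetylase HDAC1 had the highest mean, 0.77 ± 0.79, with values of 1.16, 1.66, 0.31 and -0.07 on days 1 to 4 (limma adjusted p = 0.341). Like RELA it was highest on day 2 and slightly below 0 on day 4. The others lay between -0.10 (HDAC2) and 0.13 (HDAC3), with KAT2B at 0.10 and NCOA1 at 0.01.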

How the data were processed

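RNA of induced and uninduced EJM cells was read on 4 arrays, from 50 µg of total RNA per dye, per the labels' protocols. The deposited values are log2 ratios of the channels (base and direction inferred as stated above). How background, normalization and weak spots were handled is not given in the labels used here. The array medians lay between -0.068 and 0.004, and whether the authors centred the values is not stated.

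Of 15246 probes, 10169 had 1 gene symbol, 4 several and 5073 none. Symbols were updated by Entrez identifier in a RefSeq table (GRCh38.p14), which held 10128, and no gene coordinates were taken from it. Probes of a symbol were averaged per array, and unnamed probes were kept singly. The mean (at least 3 arrays) and the slope on day (all 4 arrays) were fitted across all features with limma 3.58.1 in R 4.3.3 (lmFit, eBayes, two-sided) and Benjamini-Hochberg adjustment at 0.05. The fits were run on simulated data with independent noise and with shifts larger than the mean or slope of any member. That run does not show how well effects of the size seen here are recovered. The p-values measure the spread between days, which are not replicates of a condition, and nothing says that the arrays came from separate cultures.

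The members, gene lists and rules were chosen with earlier results of these data known. Named genes were the members, NFKBIA, the 5 genes nearest to each member with a mean of at least 0.5 in size, and, of each NF-κB list, the called genes and the 3 lowest and 3 highest means. Alternatives changed the scaling, centring and weighting of arrays, the rule for several probes, the filter on missing values, the variance moderation and the arrays used.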

Additional observations from a re-analysis of the deposited data

Results flagged for a closer look

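In 41 sets of 4 values (members, their probes and other named genes), 4 had an array that stood apart from the other arrays, where chance marks about 5% of such sets. Some of the genes were named for extreme means or for nearness to a member. The sets also hold genes beside their own probes, so that rate may not hold here. Probe 34508_1 of NFKB2 read -0.153 on day 1, against values from -0.64 to -0.61 on the other days. IL2RG read -0.785 on day 1, against -1.15 to -1.13 on the others. TNFRSF1B read -0.694 on day 3, against -0.51 to -0.47 on the others. TRAF5 read 1.978 on day 2, against -0.19 to 0.15 on the others.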

How the results depend on the processing

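The means of RELA and BCL3 kept their sign and missed the threshold in all 15 alternatives. NFKB2 and RELB kept their sign in all 15 and passed in 3 each: -0.74 and -0.631 with array weights, -1.308 and -1.138 with the most complete probe of each gene, and -0.635 and -0.562 with days 3 and 4 alone. For both genes the most complete probe was the first by ID among equally complete probes, some of which did not pass. REL turned positive, without passing, at 0.042 with array weights, 0.049 with the most complete probe and with probes with values on all 4 arrays, and 0.119 with days 3 and 4 alone. NFKB1 turned negative, without passing, at -0.019 with arrays scaled to the same spread, -0.133 with array weights and -0.189 with days 3 and 4 alone. Leaving out an array gave -0.221 to 0.05 for REL (positive without day 1) and -0.1 to 0.106 for NFKB1 (negative without day 2). The slope of BCL3 turned to -0.105 with the most complete probe, and the other slopes of members kept their sign. Leaving out an array gave slopes of 0.111 to 0.392 for REL and 0.001 to 0.497 for NFKB2.

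The count of features called on the mean was 26. It was 3 with arrays scaled to the same spread, 291 with array weights, 42 with features with values on all 4 arrays, 1 with days 1 and 2 alone, 569 with days 3 and 4 alone and 3 to 5 without any 1 of the arrays. It was 55 with each probe as a feature, chosen after the data were seen. The cause of these differences was not tested. No feature passed on the slope in any alternative run, and 963 had an unadjusted p under 0.05 in the fit as reported. Each ratio already sets induced against uninduced cells on the same array. The arrays form a single group, so no further pairing between arrays was made. Spot intensities were not used here, so the limit that weak signal sets was not measured.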
